A study of Mus musculus with 2 samples.

Results

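Hepatocytes store surplus fatty acids as triglyceride in lipid droplets, and the 10 genes described here act at the surface of these droplets or on the triglyceride they hold. They were taken by name from the 27998 genes counted in the libraries: Plin2, Plin4, Plin5, Cidec and Cideb, which code for droplet proteins, Cd36 for fatty acid uptake, Dgat2 for triglyceride synthesis, Pnpla2 and G0s2 for lipolysis and its inhibition, and Mttp for secretion in lipoproteins. The choice applied no limit to a measured value but was made with earlier results of these data known, and all 10 had at least 1 UMI in both libraries. Transcripts were counted in droplets (10X Genomics 3′ chemistry, version 2), where a barcode marks the droplet and a unique molecular identifier (UMI) marks each captured molecule. The series held 2 libraries of hepatocytes from C57BL/6 mice (C57BL/6J in the study's methods) on normal diet, aged 10 to 12 weeks by the labels and slightly younger by the methods, prepared by two-step collagenase perfusion, each from 1 hepatocyte preparation of a male mouse. One came from undamaged liver (0 h). The other came from liver 48 h after partial hepatectomy (PHx48h), an operation in which most liver lobes are cut away. With 1 library per time point, every difference below compares these 2 libraries, and all intervals are 95% intervals of counting error, which do not cover variation between mice.

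A lipid droplet is a core of triglyceride and cholesterol esters under a single layer of phospholipid with bound proteins. Fatty acids enter it when acyltransferases join them to glycerol, and leave it when lipases free them again. In the liver, part of the triglyceride is loaded onto apolipoprotein B in the endoplasmic reticulum and secreted as very low density lipoprotein. After partial hepatectomy the remaining liver accumulates droplets for a time before and during the wave of cell division, which is known as transient regeneration-associated steatosis.

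The barcodes were compared in sets by their share of mitochondrial UMIs, which came from 13 genes. In the undamaged library (96118593 UMIs), 3870 of 59202 barcodes had over 30% mitochondrial UMIs and 52587 had under 2%, with medians of 1213.5 and 1413 non-mitochondrial UMIs. In the PHx48h library (18198719 UMIs) the corresponding numbers were 765 and 522 of 1586 barcodes, with medians of 4411 and 5271.5 non-mitochondrial UMIs. The study's own filter left out cells of high mitochondrial content, with no limit given, and kept fewer cells than there are barcodes here, by far in the undamaged library. Which barcodes hold an intact cell is therefore not known, and many of those under 2% may hold none. Levels are given as CPM, here the UMIs of a gene per 1000000 non-mitochondrial UMIs of the pooled barcodes of a set. All 10 hepatocyte markers, such as Alb, were detected in every set, with summed levels of 97977 to 168528 CPM. Markers of other cell classes were low in these sets. The summed level ranged from 38.3 to 84.1 for 12 endothelial markers, 25.9 to 38.6 for 10 macrophage markers, 27.7 to 190.1 for 10 stromal markers, 27.6 to 246 for 5 erythroid markers and 5.10 to 14.9 for 6 cholangiocyte markers. It was at most 6.70 for 7 markers of T or NK cells, 5.40 for 5 of neutrophils and 0.914 for 4 of B cells. The 5 adipocyte markers summed to at most 0.196, and Plin1 and Adipoq, which define adipocytes, had 0 UMIs in 3 of the 4 sets. Of the stromal markers the highest sum was in PHx48h barcodes under 2%, and of the erythroid markers in undamaged barcodes under 2%. The libraries shared 148 barcode sequences.

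Promoters were listed for 9 of the 10 genes in RefSeq (GRCm38.p6), as the 250 bases before the transcription start and the 50 bases after it. Those of 4 genes are shown, 5′ to 3′ on the strand of the gene, because Plin2 and G0s2 had the highest tested ratios at 48 h in barcodes over 30%, and Plin2, Plin5 and Cd36 were the genes with the letters AGGTCA, the half-site of many nuclear receptors. The E-box CACGTG, the GC box GGGCGG and the TATA box TATAAA were searched as well. Both strands were read, and capitals mark any match, so that a half-site on the other strand reads TGACCT. Plin2 is at chr4:86670010-86670309, Plin5 at chr17:56117499-56117798, Cd36 at chr5:17835847-17836146 and G0s2 at chr1:193273139-193273438, all on the minus strand.
Plin2: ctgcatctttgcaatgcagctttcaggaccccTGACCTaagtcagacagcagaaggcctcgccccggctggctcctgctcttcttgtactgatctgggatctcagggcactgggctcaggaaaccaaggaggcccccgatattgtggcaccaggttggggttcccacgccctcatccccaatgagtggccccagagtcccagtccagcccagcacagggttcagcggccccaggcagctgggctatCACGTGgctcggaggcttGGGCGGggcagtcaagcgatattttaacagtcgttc
Plin5: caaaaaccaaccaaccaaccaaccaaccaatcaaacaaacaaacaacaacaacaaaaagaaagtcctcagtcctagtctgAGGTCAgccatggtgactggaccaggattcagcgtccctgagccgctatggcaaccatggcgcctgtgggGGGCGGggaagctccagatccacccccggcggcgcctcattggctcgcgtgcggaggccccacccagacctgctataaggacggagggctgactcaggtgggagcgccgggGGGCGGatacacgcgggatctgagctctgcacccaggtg
Cd36: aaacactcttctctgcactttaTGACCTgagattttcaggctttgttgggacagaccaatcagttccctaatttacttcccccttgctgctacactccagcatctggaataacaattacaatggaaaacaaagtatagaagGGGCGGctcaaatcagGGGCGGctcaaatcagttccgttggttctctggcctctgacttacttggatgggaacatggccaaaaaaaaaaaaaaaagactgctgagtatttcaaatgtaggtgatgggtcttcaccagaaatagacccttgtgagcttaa
G0s2: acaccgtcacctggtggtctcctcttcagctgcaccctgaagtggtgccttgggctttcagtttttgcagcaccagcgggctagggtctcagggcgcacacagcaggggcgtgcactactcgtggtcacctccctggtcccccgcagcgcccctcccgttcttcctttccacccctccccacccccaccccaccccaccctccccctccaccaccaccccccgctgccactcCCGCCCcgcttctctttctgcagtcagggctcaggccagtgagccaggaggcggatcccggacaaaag

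AGGTCA was present in promoters of 3 genes, Plin2, Plin5 and Cd36, against 16.3% of all 32851 promoters of this length. CACGTG, found in 7.15% of promoters, was present in 1 of the genes, Plin2. GGGCGG was present in 7 of the genes (35.7% of all promoters) and TATAAA only in that of Cideb (13.6%). A pair of AGGTCA with 1 base between, the full element of the fatty acid receptor PPARα with its partner RXR, occurred in 13 promoters and in 0 of these genes. These are counts of letters in a short window, and no binding was measured here.

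Plin2 and G0s2 were the members whose levels were at least 2-fold higher at 48 h in barcodes over 30%, as were 30.9% of all genes tested, and neither was with TMM factors (log2 ratios 0.61 and 0.83), which rescale the pools by the trimmed mean of their gene ratios. Plin2 codes for perilipin 2, the main droplet coat protein of hepatocytes. In barcodes over 30% its level was 161 (150.4 to 171) in undamaged liver and 362 (346 to 379) at PHx48h, from 928 and 1850 UMIs. In barcodes under 2% the levels were 277 (273 to 281) and 356 (336 to 378). Plin2 was thus lowest in undamaged barcodes over 30%, whose interval did not overlap that of any other set, and the PHx48h levels of both sets overlapped. The log2 ratio of 48 h over 0 h was 1.17 (1.06 to 1.29) over 30% and 0.36 (0.28 to 0.45) under 2%.

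**Figure D1:**
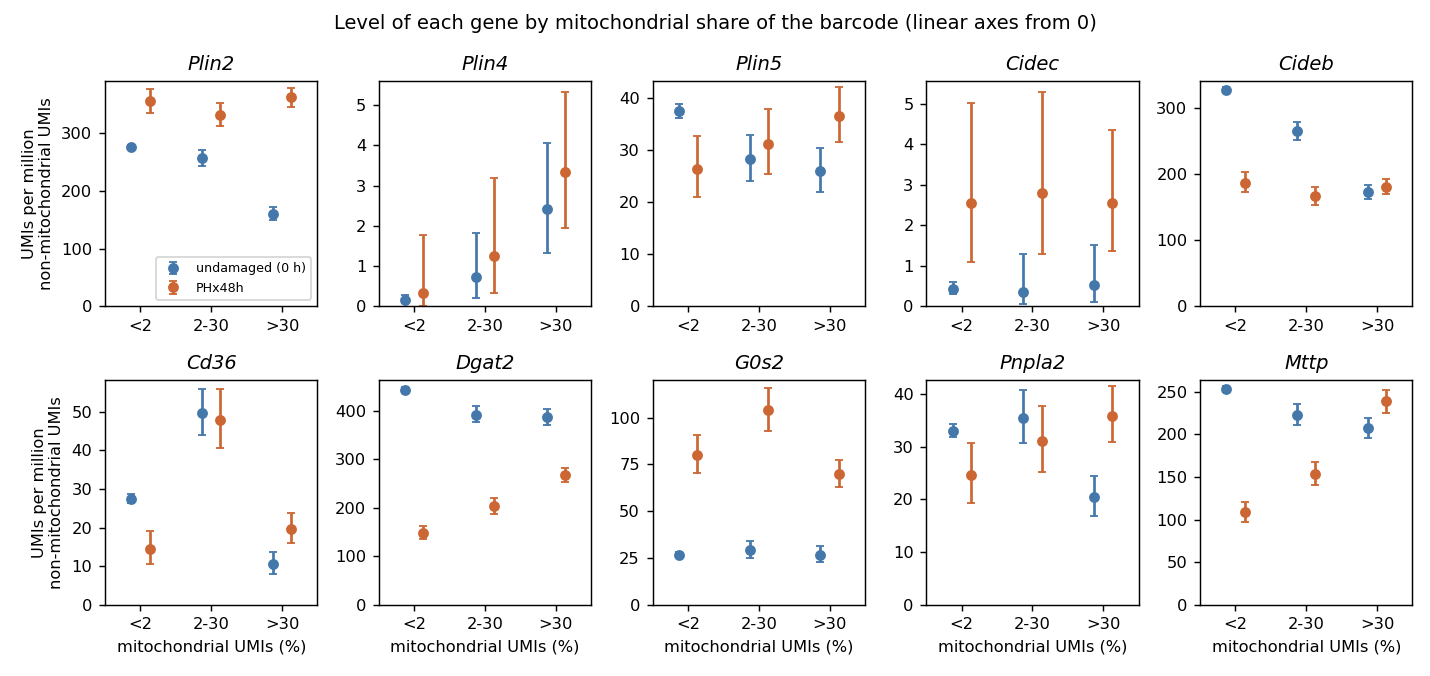
Level of each of the 10 genes (y axis, CPM of non-mitochondrial UMIs) in barcodes of under 2%, 2 to 30% and over 30% mitochondrial UMIs (x axis) of the undamaged and PHx48h libraries, with exact 95% Poisson intervals as bars. G0s2 lies higher at PHx48h in all 3 sets, Dgat2 lies lower in all 3, and Mttp is lower at PHx48h under 2% (108 against 253) and higher over 30% (239 against 207).

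Perilipin 5, coded by Plin5, coats droplets in contact with mitochondria and is made mostly in oxidative tissues. Its level over 30% was 26.0 (22.0 to 30.5) at 0 h and 36.6 (31.6 to 42.3) at 48 h. Under 2% it was 37.5 (36.2 to 38.9) at 0 h and 26.5 (21.1 to 32.8) at 48 h. The order of the time points was thus opposite in the sets, with log2 ratios of 0.50 (0.18 to 0.82) over 30% and -0.50 (-0.84 to -0.19) under 2%. Plin4, whose product coats small new droplets mainly in adipose tissue and muscle, had 14 and 17 UMIs over 30% at 0 h and 48 h, and 13 and 1 under 2%. These counts give a log2 ratio of 0.46 (-0.65 to 1.59) over 30%, and its level was below the minimum of 5 CPM (mean of the pools compared) at which a gene was tested.

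The CIDE proteins sit where droplets touch. Cidec makes droplets fuse and grow, and its transcript is known to climb in fatty liver. It was scarce, with 3 UMIs over 30% at 0 h and 13 at 48 h (0.52 and 2.55 CPM), and with 34 and 8 UMIs under 2% (0.43 and 2.55 CPM). The log2 ratios were 2.29 (0.43 to 4.75) and 2.56 (1.24 to 3.70), both with intervals above 0, and Cidec was too low to be tested. With only the 1500 deepest undamaged barcodes, the ratio under 2% was 0.08. Cideb serves in droplet fusion and in the lipid loading of lipoproteins, and its level over 30% was 173 (162 to 184) at 0 h and 181 (169 to 193) at 48 h, which did not differ beyond counting error (log2 ratio 0.07, -0.06 to 0.20). Under 2% Cideb was 328 (324 to 332) at 0 h and 187 (172 to 203) at 48 h, so that 3 of the 4 sets had overlapping intervals and the undamaged barcodes under 2% stood above them.

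Cd36 codes for a fatty acid transporter of the plasma membrane, which endothelial cells and macrophages carry as well as hepatocytes. Its level over 30% was 10.6 (8.07 to 13.6) at 0 h and 19.6 (15.9 to 23.8) at 48 h. Under 2% the order was opposite, with 27.5 (26.3 to 28.6) at 0 h and 14.3 (10.5 to 19.2) at 48 h. The log2 ratios were 0.89 (0.42 to 1.38) and -0.94 (-1.40 to -0.51). With limits of over 50% and under 1% in place of 30% and 2%, the first ratio was 2.06, and that of Plin5 was 0.98 in place of 0.50.

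Dgat2 codes for the acyltransferase that adds the last fatty acid in triglyceride synthesis, at the droplet surface. It was the member with the lowest ratio at 48 h in both sets. Its level over 30% was 388 (372 to 404) at 0 h and 267 (253 to 282) at 48 h, with a log2 ratio of -0.54 (-0.64 to -0.44). Under 2% it was 444 (440 to 449) and 148 (135 to 162), with a log2 ratio of -1.59 (-1.72 to -1.45). None of these intervals overlapped another.

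Lipolysis begins with adipose triglyceride lipase, the product of Pnpla2, and G0s2 codes for the protein that binds and inhibits this lipase. The level of the inhibitor over 30% was 26.7 (22.6 to 31.2) at 0 h and 69.8 (62.7 to 77.4) at 48 h, and under 2% it was 26.8 (25.7 to 28.0) and 80.0 (70.4 to 90.6). G0s2 thus had like levels in both sets at each time point, and its log2 ratios were 1.39 (1.11 to 1.67) and 1.58 (1.38 to 1.77). The lipase transcript Pnpla2 had levels of 20.4 (16.9 to 24.5) at 0 h and 35.9 (30.9 to 41.4) at 48 h over 30%. Under 2% its levels were 33.0 (31.8 to 34.3) and 24.6 (19.4 to 30.7). Pnpla2 therefore differed in direction between the sets, with log2 ratios of 0.81 (0.47 to 1.16) and -0.43 (-0.77 to -0.10).

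Mttp codes for the large subunit of the microsomal triglyceride transfer protein, which loads triglyceride onto apolipoprotein B. Its level over 30% was 207 (195 to 219) at 0 h and 239 (225 to 252) at 48 h, a log2 ratio of 0.21 (0.09 to 0.32). Under 2% it was 253 (249 to 256) at 0 h and 108 (97.2 to 121) at 48 h, a log2 ratio of -1.22 (-1.38 to -1.07). The PHx48h barcodes under 2% thus held the lowest level of Mttp of the 4 sets, and the remaining 3 lay between 207 and 253. In the annotation of GRCm38, Mttp and 3 other members (Plin4, Cideb and G0s2) overlap a gene on the opposite strand.

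The ratios were read against all genes, since the scale itself moved between pools. Over 30%, 8 of the 10 members reached the minimum level and 2 of them (Plin2 and G0s2) had a log2 ratio of at least 1, against 30.9% of the 8533 genes tested, while 0 had a ratio of -1 or less, against 5.14%. The median log2 ratio of the 8 members was 0.65 and that of all genes tested 0.55. Relative to the median of all genes, the log2 ratios over 30% were 0.84 for G0s2, 0.62 for Plin2, 0.34 for Cd36, 0.26 for Pnpla2, -0.05 for Plin5, -0.34 for Mttp, -0.48 for Cideb and -1.09 for Dgat2. The directions of Plin5, Mttp and Cideb thus depended on the scale, and those of the other 5 did not. With TMM factors, 14.1% of all genes were higher and 14.1% lower, and 0 of the 8 members were then higher and 1 lower. Under 2%, 1 of 8 members (G0s2) was higher, against 24.3% of 7530 genes, and 2 (Dgat2 and Mttp) were lower, against 20.7%, with medians of -0.66 for the members and 0.05 for all genes tested. TMM factors moved those shares of all genes to 17.1% and 29.1%, with 4 members lower and Plin2 at 0.02. With only the 1500 deepest undamaged barcodes, of which 217 lay under 2%, the median of all genes under 2% was -0.28 and the ratios of Plin5 and Pnpla2 were -0.30 and -0.78.

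**Figure D2:**
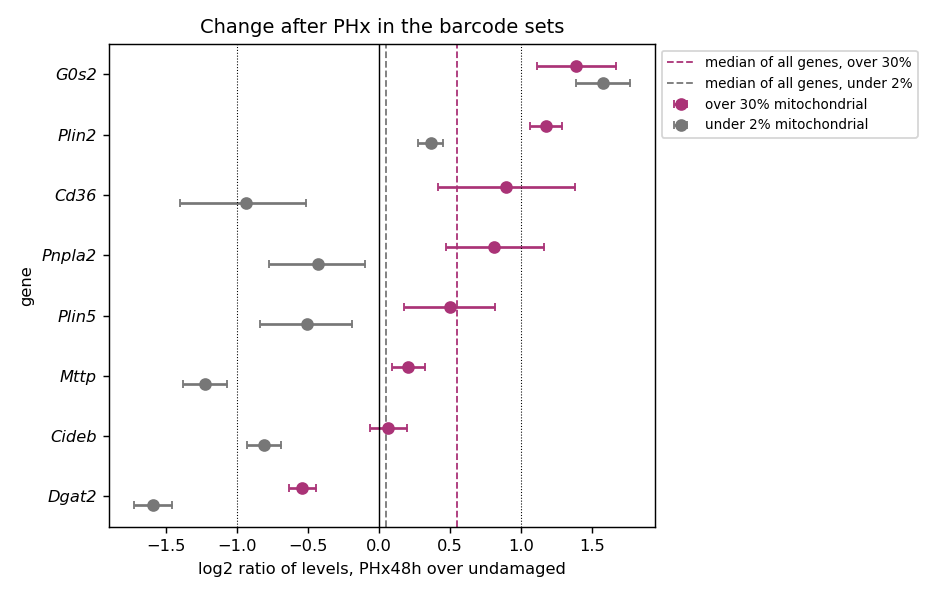
Log2 ratio of PHx48h over undamaged levels (x axis) for the 8 genes (y axis) above the minimum level, in barcodes over 30% and under 2% mitochondrial UMIs, with 95% counting intervals. Dashed lines are the medians of all genes tested (0.55 and 0.05) and dotted lines mark log2 ratios of -1 and 1. G0s2 is the only gene of the 8 whose intervals overlap between the sets, and the other 7 lie further right in barcodes over 30%.

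The change after PHx differed between the barcode sets for most of the members. The log2 ratio over 30% exceeded that under 2% by 1.83 (1.20 to 2.46) for Cd36, 1.43 (1.23 to 1.62) for Mttp, 1.24 (0.77 to 1.71) for Pnpla2, 1.05 (0.88 to 1.21) for Dgat2, 1.001 (0.56 to 1.44) for Plin5, 0.88 (0.70 to 1.05) for Cideb and 0.81 (0.67 to 0.95) for Plin2. For G0s2 the difference was -0.19 (-0.52 to 0.14). An interval above 0 was found for 7 of these 8 members and for 50.8% of the 7349 genes tested in both sets, whose median difference was 0.55 against 1.02 for the members. Whether an interval excludes 0 depends also on the UMIs of a gene. A ratio above 0 over 30% and below 0 under 2% was found for 5 members (Plin5, Cideb, Cd36, Pnpla2 and Mttp) and for 25.6% of these genes. What sets the difference between the barcode sets was not tested.

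Within each library, levels over 30% were compared with those under 2%. In the undamaged library all 8 tested members were at or below their level under 2% when over 30% mitochondrial, with a median log2 ratio of -0.61 against -0.02 for all 7652 genes tested. Cd36 was the only one with a ratio of -1 or less (-1.38, -1.77 to -1.01), against 9.63% of all genes, and 0 had a ratio of at least 1, against 13.2%. Cideb had a ratio of -0.93 (-1.02 to -0.83), Plin2 of -0.79 (-0.88 to -0.69), Pnpla2 of -0.69 (-0.97 to -0.43) and Plin5 of -0.53 (-0.78 to -0.30), while that of G0s2 was -0.01 (-0.25 to 0.23). At PHx48h the median over the members was 0.46 and that of all 8387 genes 0.60. Mttp had the only ratio of at least 1 (1.14, 0.96 to 1.32), against 34.9% of all genes, and 0 members had a ratio of -1 or less, against 6.64%. Dgat2 followed with 0.85 (0.70 to 1.01), and the intervals of 4 members included 0, namely Plin2 (0.03, -0.08 to 0.13), Cideb, Cd36 and G0s2. Relative to the median of all genes, Mttp was at 0.54, Dgat2 at 0.25 and Plin2 at -0.57. With TMM factors, 10.2% of all genes were higher and 14.1% lower in the undamaged library, and 17.2% and 17.7% at PHx48h, where the median of the members was then -0.05.

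**Figure D3:**
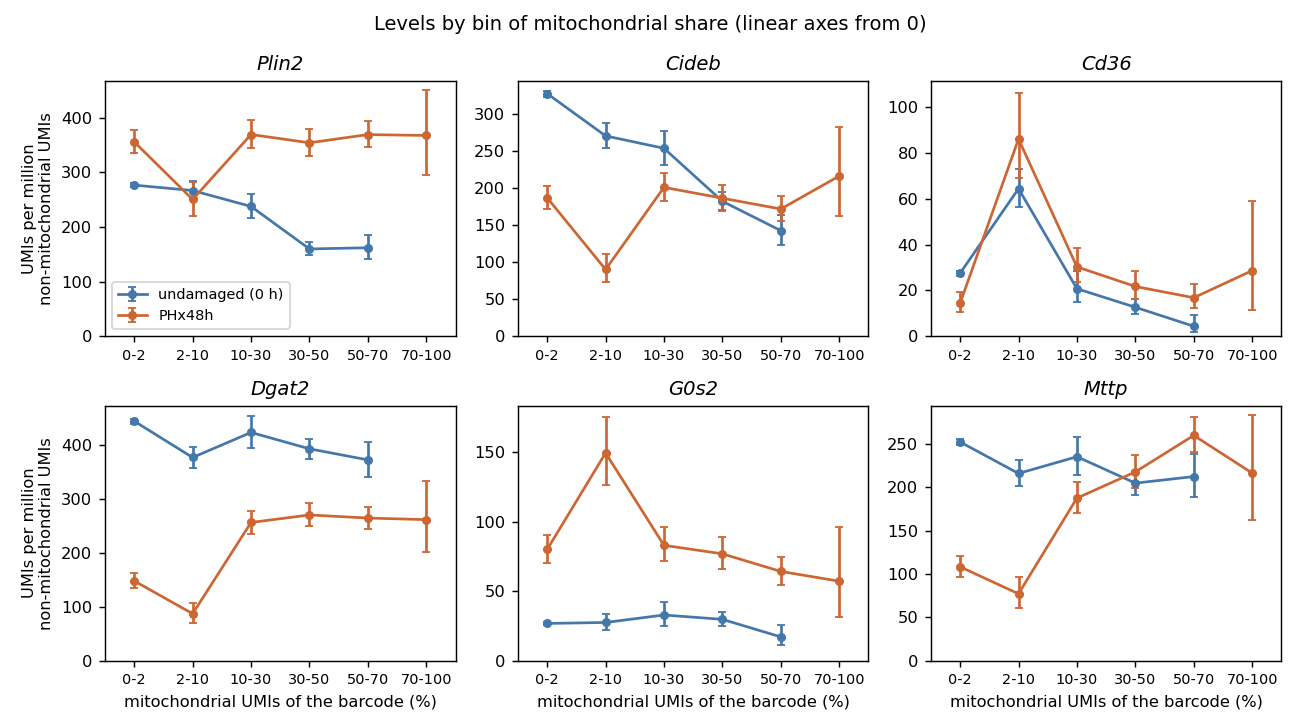
Levels of 6 members (y axis, CPM of non-mitochondrial UMIs) in 6 bins of mitochondrial share (x axis), with exact 95% Poisson intervals as bars and without the undamaged bin of 70 to 100%, which held 18 barcodes. Plin2 and Cideb are lower above 30% than below 2% in the undamaged library, Dgat2 and Mttp at PHx48h are lower below 10% than above it, and Cd36 is highest at 2 to 10% in both libraries. Without barcodes rich in markers of other cell classes, Cd36 at 2 to 10% falls from 64.4 to 35.2 (28.3 to 43.2) at 0 h and from 86.1 to 33.8 (19.3 to 54.8) at 48 h. G0s2 in that bin at 48 h then falls from 149.5 to 48.5 (30.8 to 72.8).

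The finer bins showed where these levels turned. In the undamaged library Plin2 was 277 (273 to 281) at 0 to 2%, 267 (251 to 284) at 2 to 10%, 238 (216 to 261) at 10 to 30%, 159.7 (148 to 172) at 30 to 50% and 162 (142 to 185) at 50 to 70%, so that its drop lay between the bins of 10 to 30% and 30 to 50%. At PHx48h the Dgat2 level was 256 to 270.3 in all 4 bins above 10%, and it was 148 (135 to 162) at 0 to 2% and 87.1 (69.9 to 107) at 2 to 10%. Mttp at PHx48h was 108 and 77.2 in these lower bins and 188 to 260.2 above them. At 2 to 10%, 80 of the 156 PHx48h barcodes were rich in markers of other cell classes, and without them Dgat2 was 148 (115 to 187) and Mttp 118 (89.2 to 153), close to the levels at 0 to 2%. Levels of Dgat2 and Mttp in undamaged liver ranged only from 372 to 444 and from 205 to 253 over the 5 bins with 20 or more barcodes. Over the 11 pools of both libraries with 20 or more barcodes, the 5 genes most like Plin2 by the Pearson r of log2(level + 5) were Adh1 (0.98), Qprt (0.97), Acaa2 (0.97), Bdh1 (0.97) and Atp5a1 (0.97), of 4720 genes compared. With the bin of 18 barcodes, in which Plin2 rested on 3 UMIs, they were Qprt, Suclg1, Tst, Gch1 and Gpx1. Pools of 1 library share their preparation and depth, so these correlations describe the pools only. Among the members the r with Plin2 was highest for Cidec (0.79), Pnpla2 (0.67) and G0s2 (0.62) and lowest for Dgat2 (-0.34). Cidec did not exceed 4.09 CPM in any of these pools, while the 4720 genes compared had a mean level of at least 20. Its r therefore rests on few UMIs and does not show that it varies with Plin2.

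Barcodes rich in markers of other cell classes were set apart, defined as UMIs of at least 3 markers of a class that made up at least 0.5% of non-mitochondrial UMIs. There were 569 such barcodes in the undamaged library and 95 at PHx48h, of which 8 and 2 lay over 30% and 157 and 7 under 2%, and a barcode could be rich in several classes. Of those rich in endothelial markers, 187 of 241 and 44 of 45 lay at 2 to 30%. Cd36 reached 200.2 (168 to 236) at 0 h and 205 (158 to 262) at 48 h in the 241 and 45 barcodes rich in endothelial markers. These levels did not differ between the time points beyond counting error, and both lay above those of any set by mitochondrial share. With stromal markers Cd36 was 162 (125 to 206) at 0 h and 104 (73.2 to 145) at 48 h. With macrophage markers it was 70.6 (52.9 to 92.3) and 81.3 (39.0 to 150), so a raised Cd36 level was not particular to endothelial markers. Marker-rich barcodes of all classes held 6.91% of the Cd36 UMIs of the undamaged library and 27.1% of those of the PHx48h library. They made up 0.96% and 5.99% of the barcodes. Their pooled Cd36 levels of 115 (98.7 to 134) and 130 (103 to 161) overlapped. Of the 3 classes with over 20 rich barcodes in both libraries, G0s2 was highest with stromal markers, at 105 (76.2 to 142) in 141 barcodes at 0 h and 377 (315 to 448) in 49 barcodes at 48 h. In the 7 undamaged barcodes rich in neutrophil markers it was 266 (54.9 to 778), from 3 UMIs. Without the marker-rich barcodes the log2 ratios of Cd36 were 0.94 over 30% and -0.98 under 2%, and those of G0s2 were 1.39 and 1.55.

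**Figure D4:**
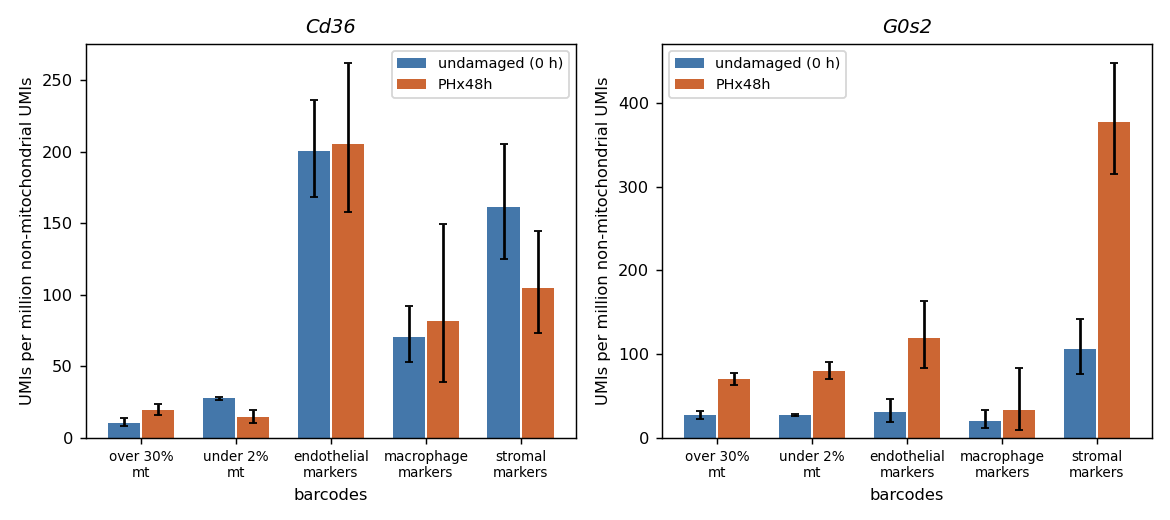
Levels of Cd36 and G0s2 (y axis, CPM of non-mitochondrial UMIs, bars from 0) in barcodes by mitochondrial share and in barcodes rich in markers of 3 other cell classes (x axis) in both libraries, with exact 95% Poisson intervals. Cd36 is 200.2 and 205 with endothelial markers at both time points, and G0s2 with stromal markers is 105 at 0 h and 377 at PHx48h.

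The share of barcodes with a UMI was compared at equal depth for Plin2 and Dgat2. At a depth of 500 non-mitochondrial UMIs, with exact binomial intervals, a Plin2 UMI was expected in 7.27% (6.47 to 8.15) of the undamaged barcodes over 30% and in 16.5% (13.9 to 19.3) of the PHx48h ones, after 75 and 0 shallower barcodes were left out. Before thinning, 764 of 3870 and 580 of 765 barcodes had one, at median depths of 2371.5 and 10627 UMIs. In marker-rich barcodes the thinned share for Plin2 was 11.2% (8.77 to 14.1) at 0 h and 10.5% (5.16 to 18.5) at 48 h, with median depths of 2430 and 6510 UMIs. Those barcodes are no background for Plin2, which reached 277 CPM with macrophage markers at PHx48h. For Dgat2 the thinned shares were 17.5% (16.3 to 18.8) over 30% at 0 h and 12.9% (10.6 to 15.5) at 48 h, against 11.4% (8.93 to 14.3) and 2.11% (0.26 to 7.40) in marker-rich barcodes. At 1000 UMIs the variance of Plin2 counts over barcodes was 1.02 times the mean over 30% at 0 h and 1.05 times at 48 h, and it was 1.06 times for Dgat2 at 48 h, where counting alone gives 1. Barcodes with under 1000 non-mitochondrial UMIs were left out of these values. The median over 30% was 1213.5 at 0 h and 4411 at 48 h, so the selection differed between the time points.

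Liver lobules are zoned, and fat handling differs along them. Barcodes over 30% with at least 500 non-mitochondrial UMIs and without marker-rich barcodes were ranked by the share of 10 perivenous genes such as Cyp2e1 among the UMIs of these and 10 periportal genes such as Cyp2f2, and split into 3 groups of equal size, called low, middle and high. In undamaged liver (3787 barcodes) Cd36 was 3.48 (1.40 to 7.16) in the low, 6.87 (3.75 to 11.5) in the middle and 22.7 (16.0 to 31.1) in the high group, a log2 ratio of high over low of 2.70 (1.52 to 4.11). Plin5 was 16.4, 25.0 and 37.6, a log2 ratio of 1.20 (0.57 to 1.85). Cd36 lay above 99.5% and Plin5 above 95.3% of the 7817 other genes tested, which had a median of 0.26. The ratio of Plin2 was 0.58 (0.34 to 0.81), and those of Cideb and Dgat2 were 0.26 (0.03 to 0.49) and 0.19 (0.04 to 0.35), which did not exceed the median of all genes. The interval lay above 0 for these 5 of the 8 tested members, against 22.6% of genes, and below 0 for 0, against 5.1%. Such shares depend on the UMIs of a gene as well as on the size of its ratio. By size, Plin2 lay above 75.0%, Cideb above 49.3% and Dgat2 above 45.8% of genes, so the shares do not show that the members stand apart.

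At PHx48h (763 barcodes) the interval lay above 0 for 2 members, Cd36 (1.05, 0.37 to 1.73) and Cideb (0.35, 0.11 to 0.58), against 12.8% of genes, and below 0 for 0, against 7.26%. These shares too depend on the UMIs of a gene. By size, Cd36 lay above 96.7% and Cideb above 75.7% of genes. Plin5 had a ratio of -0.49 (-1.11 to 0.10) at PHx48h, against 1.20 (0.57 to 1.85) at 0 h. Plin2 had a ratio of 0.12 (-0.05 to 0.29), against 0.58 (0.34 to 0.81) at 0 h. The median of all genes tested was also lower at PHx48h, at 0.05 against 0.26. How many other genes moved as far between the time points was not counted. In the undamaged barcodes under 2% the same ranking gave ratios between -0.04 and 0.03 for the 8 members, with Cyp2e1 at 0.58. Cyp2e1 is part of the score, so the sign of its ratio was set by the ranking. Of these 52430 barcodes, 35198 lay within 0.05 of a limit between groups. The near-equal levels therefore cannot show that the members lack zonation there. In the 515 PHx48h barcodes under 2% the ratios were 1.54 (0.35 to 2.85) for Cd36, 0.49 (0.10 to 0.88) for Mttp and -0.22 (-0.43 to -0.01) for Plin2. The intervals of the other 5 included 0. Of 7329 genes tested there, the interval lay above 0 for 357 and below 0 for 544, with a median of -0.07. Of the 515 barcodes, 337 lay within 0.05 of a limit between groups. Of the genes of the score, the perivenous Cyp2e1 was at 1.26 (1.11 to 1.41) and the periportal Cyp2f2 at -0.02 (-0.22 to 0.19). In the PHx48h barcodes over 30% they were at 3.50 and -2.49. The groups under 2% were thus less parted by zone, and for Cyp2f2 not at all. The groups are ranges of a score, and 1008 of the 3787 undamaged and 288 of the 763 PHx48h barcodes lay within 0.05 of a limit between groups, with a median of 15 and 51 UMIs of these zoned genes per barcode. Median depths were 1227, 1278 and 1170 non-mitochondrial UMIs from the low to the high group at 0 h and 7037, 4184 and 3482 at 48 h.

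The PHx48h barcodes over 30% were also ranked by their share of UMIs from 21 proliferation genes such as Mki67, of which 51 barcodes had none. G0s2 was 87.0 (73.6 to 102) in the low, 72.2 (59.7 to 86.4) in the middle and 50.9 (40.9 to 62.6) in the high group, a log2 ratio of high over low of -0.77 (-1.17 to -0.39). Dgat2 was 310.1 (284 to 338), 284 (259 to 311) and 209.8 (189 to 232), a ratio of -0.56 (-0.76 to -0.37). Plin2 was 399 (370.1 to 431), 390.3 (361 to 422) and 300.1 (275 to 327), a ratio of -0.41 (-0.58 to -0.25). Barcodes richest in proliferation transcripts thus held lower levels of all 3 than those poorest in them. Plin5 and Mttp had ratios of -0.58 (-1.15 to -0.03) and -0.24 (-0.44 to -0.04), while those of Cideb, Cd36 and Pnpla2 were -0.12, 0.14 and 0.11 with intervals that included 0. The interval lay below 0 for 5 of the 8 members, against 6.75% of 8788 genes, and above 0 for 0, against 14.4%, with a median of all genes of 0.09. These shares depend on the UMIs of a gene as well as on the size of its ratio. By size, 3.38% of genes lay below G0s2, 6.50% below Plin5, 7.01% below Dgat2, 12.3% below Plin2 and 20.8% below Mttp. For Cideb, Pnpla2 and Cd36 it was 30.3%, 51.5% and 54.2%. The median depth was 4970 non-mitochondrial UMIs in the low and 4049.5 in the high group. Under 2% the 8 intervals all included 0. Of 7249 genes tested there, the interval lay above 0 for 303 and below 0 for 225. The ranking parted these barcodes less. Mki67, which is part of the score, was 54.0 in the high and 25.6 in the low group under 2%, against 184.7 and 7.59 over 30%. The intervals under 2% therefore cannot show that the members do not vary with proliferation share there.

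**Figure D5:**
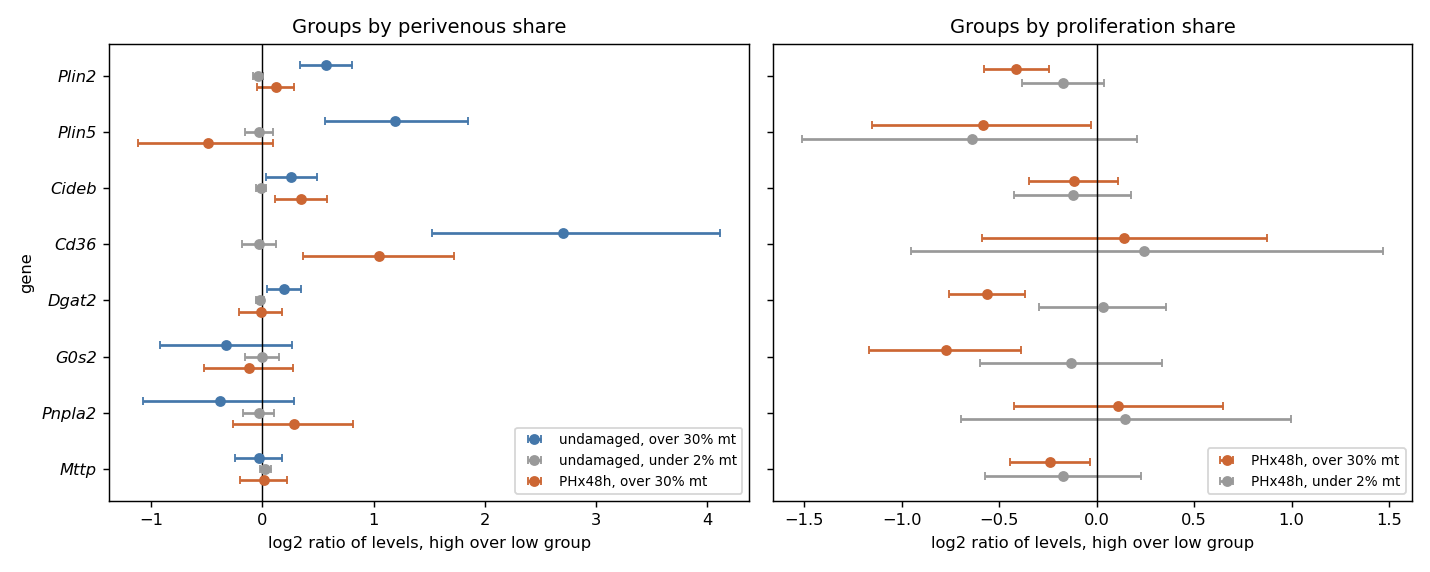
Log2 ratio of the level in the high over the low group of barcodes (x axis) for 8 genes (y axis), with 95% counting intervals, ranked by perivenous share (left) or, at PHx48h, by proliferation share (right). At left, Cd36 (2.70) and Plin5 (1.20) lie furthest right in undamaged barcodes over 30%. Undamaged barcodes under 2% lie near 0, and 35198 of those 52430 barcodes were within 0.05 of a limit between groups. At right, Plin2, Plin5, Dgat2, G0s2 and Mttp lie below 0 over 30%.

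Beside the members, 82 other genes of droplets, lipolysis, triglyceride synthesis, lipoprotein secretion, fatty acid uptake and their regulation were counted. Over 30%, 67 reached the minimum level, of which 11 (16.4%) were at least 2-fold higher at 48 h, against 30.9% of all genes, and 10 (14.9%) at least 2-fold lower, against 5.14%. Their median log2 ratio was 0.08, against 0.55 for all genes. The 4 highest were Apoa4 (4.70, from 96.4 to 2504 CPM), an apolipoprotein of triglyceride-rich particles, Fabp4 (3.90, from 5 and 66 UMIs), a fatty acid carrier of adipocytes, endothelial cells and macrophages, Acsl4 (2.13), which activates long fatty acids, and Fabp1 (1.93, from 1521 to 5778), the fatty acid carrier of the liver. The 4 lowest were the carboxylesterases Ces3b (-3.14, from 1246 to 141 CPM) and Ces3a (-2.07, from 1976 to 472), which hydrolyse triglyceride, Lpl (-1.70), the lipase of lipoproteins in capillaries, and Agpat2 (-1.34), an acyltransferase of triglyceride synthesis. Ces3a and Ces3b are near copies, between which reads can be split. Under 2%, 65 of the 82 were tested, of which 5 (7.69%) were higher, against 24.3% of all genes, and 27 (41.5%) lower, against 20.7%, with a median of -0.83 against 0.05. The ratios of Apoa4 (4.79), Ces3b (-3.94) and Ces3a (-3.99) kept their direction.

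Direct partners of the members were counted as well. Abhd5, which activates the lipase that G0s2 inhibits, had a log2 ratio of 0.77 (0.45 to 1.10) over 30% and 0.88 (0.64 to 1.11) under 2%. Dgat1, the second acyltransferase for the last step of triglyceride synthesis, had 0.06 (-0.21 to 0.32) and -0.62 (-1.04 to -0.23). P4hb, the small subunit of the transfer protein and an enzyme of protein folding, had -0.41 (-0.45 to -0.37) and -1.39 (-1.46 to -1.32). Plin3, a perilipin of small droplets, had 0.76 (0.43 to 1.11) and 0.49 (0.16 to 0.81). The intervals of Abhd5 and Plin3 lay above 0 in both sets and those of P4hb below 0, but only P4hb under 2% passed a log2 ratio of 1 or -1, and over 30% the median of all genes was 0.55.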

How the data were processed

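Hepatocyte transcripts were counted in 2 libraries, and each was assigned to its time point from its labels. Reads were aligned by the authors to mm10 with Cell Ranger, per the labels (version and barcode threshold not given in the sources used here), and the values they deposited are whole-number UMI counts without normalization. Gene coordinates were taken from GENCODE vM21 (GRCm38).

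Counts of 13 mitochondrial genes were set aside, and the remaining counts were pooled over barcodes of over 30% and of under 2% mitochondrial UMIs. Levels carry exact 95% Poisson intervals and ratios exact conditional binomial intervals, while intervals of differences between ratios use a normal approximation. PCR and cell sampling beyond UMI counting are not covered. No test between time points was possible with 1 library each. A gene was called higher or lower at a log2 ratio of 1 or -1, among genes with a mean level of at least 5 CPM in the pools compared. Shares of barcodes with a UMI were set to 500 non-mitochondrial UMIs as the expectation over all draws. No doublet caller was run. An alternative left out the deepest 5% of barcodes.

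The members and all gene lists were chosen with earlier results of these data known. Beside the members, the text names 4 partners, and the 4 highest and 4 lowest of a list of 82 other genes. Alternatives were another scale (all UMIs, TMM factors from edgeR 4.0.16, median of ratios, without the 20 most abundant genes, mean over barcodes), other barcodes (limits of 50% and 1%, at least 500 UMIs, without marker-rich barcodes), other minimum levels and an added level. Keeping only the 1500 deepest undamaged barcodes, leaving out the bin of 18 barcodes, leaving marker-rich barcodes out of the set of 2 to 30%, and the comparisons by zone and proliferation share were chosen after seeing the data. The ratio and interval steps were tested on simulated data. The remaining steps used Python 3.11.15 with SciPy 1.17.1. Bulk and chromatin data of the study were not analysed here.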

Additional observations from a re-analysis of the deposited data

Results flagged for a closer look

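For 4 genes the ratio of 48 h over 0 h had opposite signs in barcodes over 30% and under 2% mitochondrial UMIs, with intervals that excluded 0 in both sets. The log2 ratios were 0.50 and -0.50 for Plin5, 0.89 and -0.94 for Cd36, 0.81 and -0.43 for Pnpla2, and 0.21 and -1.22 for Mttp, in this order. With 1 library per time point the difference was not tested beyond counting error. By sign alone, a ratio above 0 over 30% and below 0 under 2% was found for 5 of the 8 tested members. The same was found for 25.6% of the 7349 genes tested in both sets. The share of all genes whose intervals also excluded 0 was not counted, so the pattern is not shown to be particular to the members. The signs of Cd36 and Pnpla2 over 30% were the same under 12 of 12 settings, while those of Plin5 and Mttp were above 0 under 10 and 8 of 12 and were -0.06 and -0.35 with TMM factors. Median depth over 30% was 1213.5 non-mitochondrial UMIs at 0 h and 4411 at 48 h. With only the 1500 deepest undamaged barcodes the ratios over 30% and under 2% were 0.60 and -0.30 for Plin5, 1.36 and -1.01 for Cd36, 0.86 and -0.78 for Pnpla2, and 0.10 and -0.87 for Mttp, again opposite in sign.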

How the results depend on the processing

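With TMM factors the median log2 ratio of the members was 0.094 over 30% and -1.0004 under 2%, and the median of over 30% against under 2% at 48 h was -0.054. Then 0 members were higher and 1 lower over 30%, against 14.1% and 14.1% of all genes, and 4 were lower under 2%, against 29.1%. Median of ratios gave 0.12 and -0.92, and -0.12 at 48 h. Again 0 members were higher and 1 lower over 30%, against 14.8% and 13.5% of all genes, and 4 were lower under 2%, against 27.2%. Both scalings shift all genes of a pool alike, by -0.56 and -0.53 over 30%. Counting all UMIs left 1 member higher over 30%, against 21.0% of all genes. It gave medians of over 30% against under 2% of -1.48 at 0 h and -0.67 at 48 h, since mitochondrial UMIs then enter the total. Leaving out the 20 most abundant genes left 1 member higher over 30%, against 22.6% of all genes. Under 2% it gave a median of -0.90 and 4 members lower, against 26.3% of all genes. With no minimum level 2 members were higher under 2%, against 24.6% of all genes. The remaining 85 medians and counts stayed within the median limits of the members’ counting intervals or within 1.5 times the count. Of 219 log2 ratios of single members under these settings, 53 left the counting interval of the reported ratio. None of the ratios reported at 1 or more, or -1 or less, among tested members changed sign, while with TMM factors those of Plin5 (-0.06), Mttp (-0.35) and Cideb (-0.49) over 30% were below 0. Shares of barcodes with a UMI moved with the depth they were set to, by construction. No paired analysis was possible because each time point had 1 library, and leaving out a replicate was not possible for the same reason. Depth limits Cidec, with 3 UMIs over 30% in undamaged liver, and Plin4, with 1 UMI under 2% at 48 h.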

Other observations

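Barcodes of 2 to 30% mitochondrial UMIs belonged to neither set of the comparison. In them G0s2 had the highest log2 ratio of 48 h over 0 h among the 8 members tested (1.82, 1.55 to 2.10), and Dgat2 the lowest (-0.95, -1.08 to -0.82). Plin2 (0.37, 0.26 to 0.49), Mttp (-0.54, -0.69 to -0.39) and Cideb (-0.67, -0.82 to -0.53) lay between them, and the intervals of Cd36, Pnpla2 and Plin5 included 0. Stromal markers in these barcodes summed to 686 CPM at 0 h and 1286 at 48 h, and macrophage markers to 1680 and 605. Without the barcodes rich in markers of other cell classes, an alternative chosen after seeing the data, the ratios were 1.41 (1.08 to 1.74) for G0s2, 0.49 (0.36 to 0.61) for Plin2, -0.47 (-0.63 to -0.31) for Mttp, -0.57 (-0.72 to -0.42) for Cideb and -0.85 (-0.98 to -0.72) for Dgat2, with the same directions.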
